A study of Mus musculus with 12 samples.

Results

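Adipocytes made from passage 8 cells of the mouse line 3T3-L1 were compared with adipocytes made from passage 6 cells. 8 of the 12 arrays of the series entered the comparison, those whose titles give passage 6 or passage 8. At each of these passages there was 1 culture in each of 4 treatments, so that every passage 8 array had a passage 6 partner of the same treatment. The control cultures received ethanol and DMSO as vehicle. The other cultures received the omega-3 fatty acid ALA (alpha-linolenic acid, 50 µM, its medium holding 2% albumin freed of fatty acids), a delta-6-desaturase inhibitor (5 µM), or the combination. Cells were exposed throughout the 8 days of differentiation, the maintenance medium held insulin at 5 µg/ml in every culture, and RNA was taken at day 8 with an integrity number above 8.9. The labels do not say whether the 4 cultures of a passage came from separate thaws. Passage number and the round of culture therefore cannot be told apart, and p-values measure the spread between cultures of 1 line, which may be technical. The 4 passage 7 arrays were used as an intermediate check.

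The arrays carried 22104 transcript clusters, each a set of probes for 1 transcribed locus, with values on the log2 scale. The members described here are the 11038 clusters whose mean over the 8 arrays lay above 6.19, the median of the array medians, and 10035 of them stand for a named gene. Array medians ran from 6.14 to 6.22 over the 8 arrays, and the arrays correlated at 0.989 to 0.994 with each other across clusters. Arrays give no count of molecules, so the number of arrays limits the precision.

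3T3-L1 is a fibroblast-like line that stops dividing at confluence, divides again when the hormone cocktail is given, and then fills with lipid droplets under the control of Pparg and Cebpa. Cells that do not convert keep a fibroblast character, with actin stress fibres and a collagen-rich matrix, and the line is known to lose its capacity to convert as it is passaged. Cytoskeletal tension, TGF-beta ligands and Wnt ligands are known to hold preadipocytes in the undifferentiated state. In bulk RNA, more cells of a type and more RNA per cell cannot be told apart.

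Passage 8 adipocytes had higher transcripts of the smooth muscle actins Acta2 and Actg2, of the matrix proteoglycans Lum and Dcn and of the secreted proteins Ccl11 and Rspo3, while the core adipocyte genes Pparg and Cebpa differed by 0.09 and 0.04 on the log2 scale and did not pass the test. The limma fit with treatment as a block called 146 of the 11038 clusters at a Benjamini-Hochberg adjusted p under 0.05, which is 1.32% of them. Of these, 110 rose (0.997% of the clusters) and 36 fell (0.326%), and 137 stand for a named gene. The called differences were between 0.53 and 1.60 in size on the log2 scale, with 17 clusters more than 1 unit higher and 4 more than 1 unit lower. Of the 110 that rose, 13 had a passage 6 mean that was not above the array median and 97 had one above it. Of the 36 that fell, 3 had a passage 8 mean not above it and 33 had one above it. Those 16 entered the members only through the passage in which they were high. The median difference over all named members was 0.01. Over all 22104 clusters 176 passed, or 0.796%. Every one of the 146 differed in the same direction in all 4 treatments, as did 36.0% of all 11038 clusters.

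The count of calls turned on having all 4 treatments and on how the spread was estimated. Without the ALA pair 4 clusters passed (Ccl11, Acta2, Actg2 and Gpr149), and without the control, inhibitor or combined pair 0 passed in limma. In those last fits 1540, 1498 and 1848 clusters were at an unadjusted p under 0.05. Each of the 146 stayed at an unadjusted p under 0.01 in the same direction. The 146 were chosen in the fit of all 8 arrays, whose arrays these fits reuse, so their staying carries no test. Without the treatment block 370 passed, with a prior that follows intensity 1572 passed, and at an unadjusted p under 0.01 in the fit of all 8 arrays there were 896 members, or 8.12%, of which 581 were higher and 315 lower. Over all clusters 1290 were at that level (5.84%, with 3.56% higher and 2.28% lower).

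**Figure D1:**
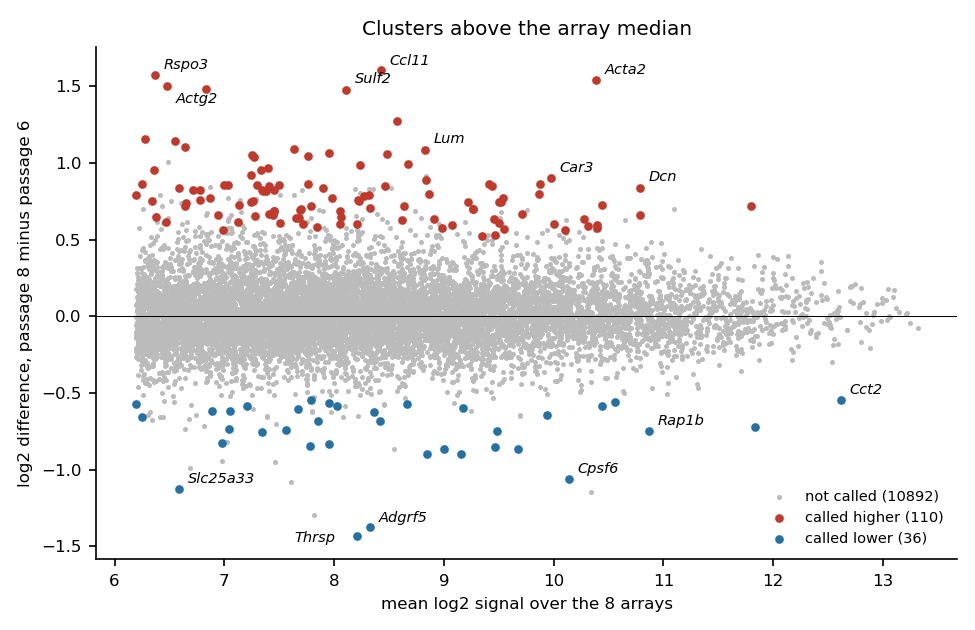
Log2 difference between passage 8 and passage 6 against the mean log2 signal over the 8 arrays, 1 point for each of the 11038 clusters above the array median. Red points are the 110 clusters called higher, blue points the 36 called lower (limma, adjusted p under 0.05), and grey points the 10892 not called.

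The contractile genes held 3 of the 15 largest rises. Values are given in the order control, ALA, inhibitor and both. Acta2, the smooth muscle alpha-actin of stress fibres in activated fibroblasts, measured 9.81, 9.80, 9.62 and 9.25 at passage 6 and 11.28, 11.41, 11.00 and 10.95 at passage 8. Every passage 8 culture was more than 1 log2 unit above every passage 6 culture, and the mean rise was 1.54 (SE 0.09, 2.91-fold, limma adjusted p = 0.012). Actg2, the smooth muscle gamma-actin, measured 5.81, 5.87, 5.71 and 5.54 at passage 6 and 7.23, 7.54, 7.28 and 6.88 at passage 8. The rise was 1.5 (SE 0.09, limma adjusted p = 0.012). All its passage 6 values lay below 6.19, so it is a member only through passage 8. Cnn2, a calponin that binds actin filaments, rose from 7.42 ± 0.29 to 8.49 ± 0.26 (SD, n = 4), a log2 difference of 1.06, and the groups did not overlap.

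Of the 16 contractile and YAP/TEAD target genes above the array median, 13 were higher and 3 lower, with a median log2 difference of 0.32. Only these 3 members passed the test, beside 0.997% of the 11038 clusters called higher. At an unadjusted p under 0.01, 6 members were higher, a level at which 5.26% of the clusters were higher. These 6 include Actg2 and Myl9, which are members only through passage 8, so neither adds support to the counts. Actg2 is also among the 3 that passed. Myl9, the regulatory light chain of smooth muscle myosin, measured 6.13 ± 0.12 at passage 6 and 6.89 ± 0.23 at passage 8 (limma adjusted p = 0.069). Its passage 6 mean lay below 6.19, so it is a member only through passage 8. Desmin (Des), the intermediate filament of muscle cells, went the other way and fell from 8.19 ± 0.11 to 7.51 ± 0.09, by 0.68 on the log2 scale.

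Lum, Dcn and Postn were the fibroblast markers called higher at passage 8, beside 0.997% of the 11038 clusters called higher. All 16 preadipocyte and fibroblast markers above the array median were higher, 13 of them in all 4 treatments, with a median log2 difference of 0.39 against 0.01 over all named members. Lum, which encodes the collagen-binding proteoglycan lumican, measured 8.45, 8.34, 8.24 and 8.13 at passage 6 and 9.58, 9.57, 9.23 and 9.12 at passage 8. The passages did not overlap and the rise was 1.09 (SE 0.09, 2.12-fold, limma adjusted p = 0.022). Dcn, the related proteoglycan decorin that binds collagen and TGF-beta, measured 10.50, 10.60, 10.29 and 10.09 at passage 6 and 11.46, 11.33, 11.14 and 10.89 at passage 8. Its rise of 0.84 (SE 0.09, limma adjusted p = 0.023) was again free of overlap. Periostin (Postn), a matricellular protein of fibroblasts, rose from 11.44 ± 0.22 to 12.16 ± 0.15. The other 13 markers did not pass. Cd248, a surface antigen of stromal cells, measured 10.75 ± 0.30 and 11.45 ± 0.07 (limma adjusted p = 0.053), and Pdgfrb, a growth factor receptor of mesenchymal cells, 10.09 ± 0.08 and 10.53 ± 0.10 (0.072).

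Of 28 collagen and matrix genes, 26 were higher and 2 lower, with a median of 0.28, and 3 passed the test, beside 0.997% of the 11038 clusters called higher. These were Fbln1 (fibulin 1, an elastic-fibre glycoprotein) at 0.84, Col11a1 (a fibrillar collagen chain) at 0.67 and Thbs1 (thrombospondin 1, an activator of latent TGF-beta) at 0.64. Fbln1 was even across treatments, at 7.49, 7.50, 7.62 and 7.31 at passage 6 and 8.33, 8.28, 8.30 and 8.34 at passage 8. Col1a1, the main chain of type I collagen, measured 10.65 ± 0.13 and 11.13 ± 0.14 without overlap and did not pass (limma adjusted p = 0.06). Tnc (tenascin C) at 0.84 (0.054) and Lox, the collagen cross-linking oxidase, at 0.63 (0.055) also missed the threshold.

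Mfap4, a microfibril-associated glycoprotein, measured 8.54, 8.38, 7.15 and 7.66 at passage 6 and 9.51, 9.28, 9.01 and 9.04 at passage 8, a rise of 1.28 (SE 0.17, limma adjusted p = 0.034). The 2 cultures with the inhibitor were the lowest at both passages. Fmod (fibromodulin, a collagen-binding proteoglycan) measured 6.29, 6.74, 5.53 and 5.33 at passage 6 and 7.33, 7.38, 7.04 and 6.74 at passage 8, again lowest with the inhibitor at both. The highest passage 6 value equalled the lowest passage 8 value, so the call (1.15, limma adjusted p = 0.037) rests on the pairing by treatment and was lost without it. The passage 6 mean of Fmod, 5.97, lay below 6.19, so Fmod is a member only through passage 8. Prss23, a secreted serine protease, rose by 1.09.

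Timp2 and Timp1, tissue inhibitors of metalloproteinases, rose. Timp2 measured 9.60, 9.60, 9.32 and 9.27 at passage 6 and 10.45, 10.58, 10.09 and 10.12 at passage 8 (0.87, SE 0.08, limma adjusted p = 0.023). Timp1 rose by 0.77 (SE 0.10), and both were without overlap. In the list of 14 proteases and inhibitors 12 were higher and 2 lower, with a median of 0.33, and 2 passed, beside 0.997% of the 11038 clusters called higher. The inhibitor Timp4 at 0.68 (limma adjusted p = 0.064) and the membrane-bound protease Mmp14 at 0.56 (0.087) did not pass.

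Several of the called genes encode secreted ligands or their modulators, picked here from the calls and not from a list. Ccl11 (eotaxin, a chemokine for eosinophils) had the largest difference of all, 7.61, 7.81, 7.52 and 7.56 at passage 6 against 9.13, 8.93, 9.30 and 9.57 at passage 8. Passage 7 lay midway at 8.41 ± 0.12, and the rise was 1.60 (SE 0.15, 3.04-fold, limma adjusted p = 0.023). Rspo3 (R-spondin 3, which enhances Wnt signalling) measured 5.36, 6.01, 5.29 and 5.66 at passage 6 and 7.41, 7.38, 7.10 and 6.74 at passage 8, a rise of 1.57 (SE 0.16, limma adjusted p = 0.024). Its passage 6 values all lay below 6.19, so it too is a member only through passage 8. Sulf2, an extracellular sulfatase that edits heparan sulfate and so the binding of growth factors, rose from 7.37 ± 0.26 to 8.85 ± 0.16. Sfrp2, a secreted Frizzled-related protein that binds Wnt ligands, rose by 0.99 (SE 0.11), and it was lower in the cultures with the inhibitor at both passages (7.90 and 7.88, then 8.76 and 8.75) than in those without (8.25 and 8.66, then 9.60 and 9.55).

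In the Wnt list 13 of the 16 genes above the array median were higher (median 0.15). Sfrp2 alone passed, beside 0.997% of the 11038 clusters called higher, Rspo3 not being on that list. Over all 35 genes of the list on the array 17 were higher and 18 lower, with a median of -0.01. Of 22 TGF-beta and BMP genes 16 were higher and 6 lower (median 0.18), and 3 passed, beside 0.997% of the 11038 clusters called higher. Fst (follistatin, an antagonist of activins) rose by 0.95 from 6.86 ± 0.24 to 7.81 ± 0.10. Ltbp1 (a latent TGF-beta binding protein) rose by 0.86, and the ligand gene Tgfb2 by 0.58 from 8.70 ± 0.14 to 9.27 ± 0.16. Grem1 (gremlin 1, an antagonist of BMPs) measured 5.98 ± 0.36 and 6.99 ± 0.38, the largest difference of that list at 1.00, with limma adjusted p = 0.072. Its passage 6 mean lay below 6.19, so it is a member only through passage 8.

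Other large rises included Gpr149, Pcdh18, Ptchd1 and Nxf3. Gpr149, an orphan G-protein-coupled receptor, measured 6.12, 6.74, 5.58 and 5.93 at passage 6 and 7.76, 7.41, 7.57 and 7.54 at passage 8, a rise of 1.48 (SE 0.20, limma adjusted p = 0.039). Pcdh18, a protocadherin of the cell surface, rose by 1.15, Ptchd1, a membrane protein with a Patched domain, by 1.11, and Nxf3, of the nuclear RNA export factor family, by 1.05. The passage 6 means of Gpr149 (6.09), Pcdh18 (5.70) and Ptchd1 (6.08) lay below 6.19, so these are members only through passage 8. The passages overlapped for none of these 4 genes, which were picked for their large differences, so the lack of overlap carries no test. The share of all clusters without overlap is not given here, and lack of overlap describes single genes only. Of 10 imprinted genes above the array median 8 were higher, and 2 passed, beside 0.997% of the 11038 clusters called higher. They were Peg3 at 0.85 and Ndn (necdin) at 0.60. Igf2, a growth factor, differed by 0.24 and Peg10 by -0.30, and neither passed.

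**Figure D2:**
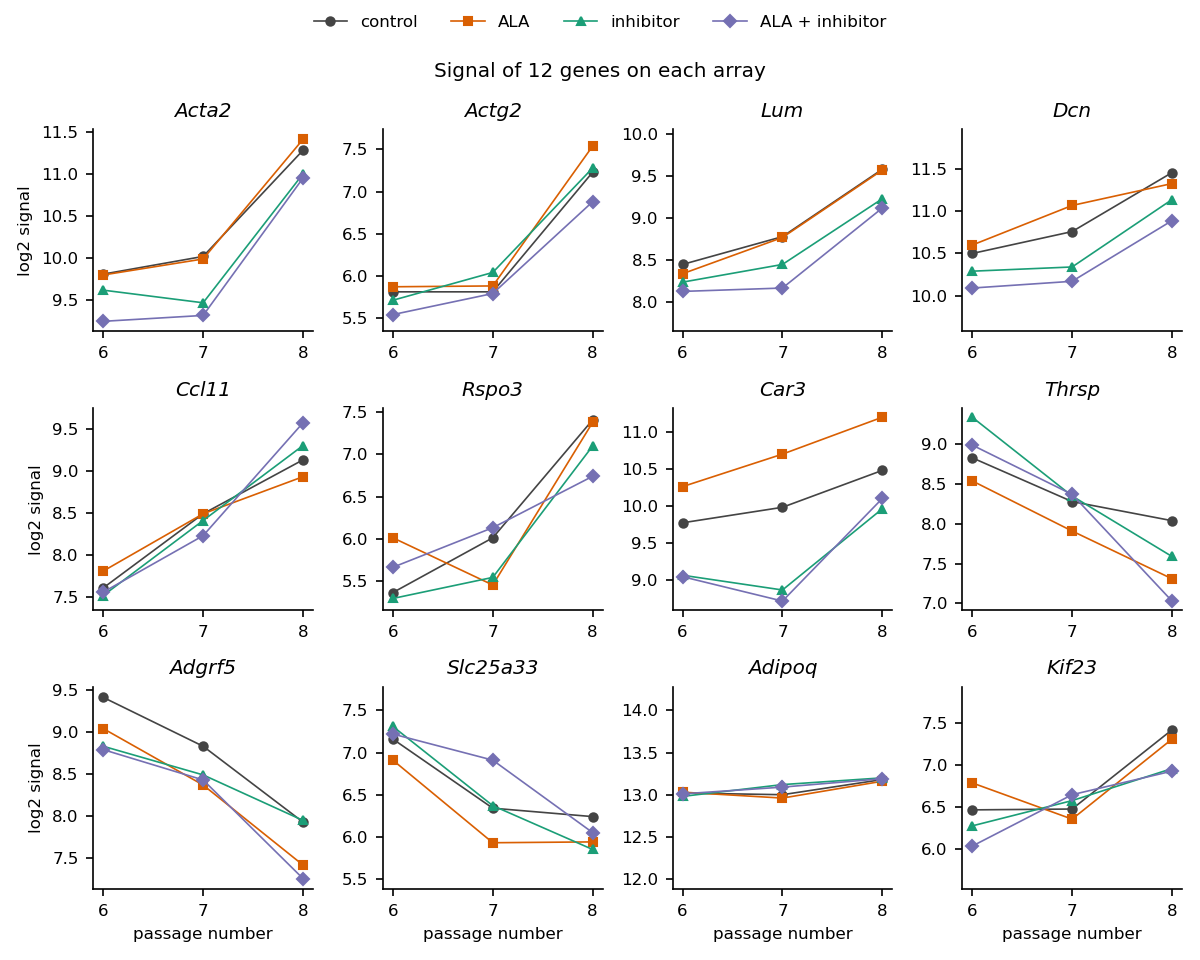
Log2 signal of 12 genes on each of the 12 arrays against passage number, 1 line per treatment and 1 panel per gene, each with its own axis range. Acta2, Actg2, Lum, Dcn, Ccl11, Rspo3, Car3 and Kif23 were higher at passage 8 than at passage 6 in all 4 treatments, Thrsp, Adgrf5 and Slc25a33 were lower in all 4, and Adipoq stayed between 12.96 and 13.20.

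The adipocyte identity of the cultures was plain at both passages, and most of its genes did not pass the test. Adipoq (adiponectin) measured 13.01 ± 0.02 and 13.18 ± 0.01 and Fabp4, the fatty acid carrier, 12.93 ± 0.07 and 13.05 ± 0.05, near the top of the array range. Pparg differed by 0.09, Cebpa by 0.04, Lpl (lipoprotein lipase) by 0.11, Plin1 (the lipid droplet coat protein) by 0.33 and Scd1 (stearoyl-CoA desaturase) by -0.03. Fasn (fatty acid synthase) differed by -0.17 and Slc2a4, the insulin-regulated glucose transporter, by -0.34. Among these the smallest limma adjusted p was 0.15, for Plin1. Dlk1, the preadipocyte factor that is shut off on conversion, measured 11.31 ± 0.25 and 11.54 ± 0.11 and did not pass.

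Of 24 adipocyte markers above the array median 17 were higher and 7 lower (median 0.15), with 14 higher and 2 lower in all 4 treatments. At an unadjusted p under 0.01, 7 were higher and 1 lower, where 5.26% of the 11038 clusters were higher and 2.85% lower. The 2 markers that passed moved in opposite directions, beside 0.997% of the clusters called higher and 0.326% called lower. Car3 (carbonic anhydrase 3) measured 9.77, 10.26, 9.06 and 9.04 at passage 6 and 10.48, 11.20, 9.96 and 10.10 at passage 8. The treatments differed more than the passages did and the groups overlapped, yet the difference within each treatment was between 0.72 and 1.06, and it averaged 0.90 (SE 0.09, limma adjusted p = 0.023). Without the treatment block Car3 did not pass. Leptin (Lep) measured 7.44 ± 0.49 and 8.06 ± 0.26 (limma adjusted p = 0.079), and Pck1, the enzyme of glyceroneogenesis, 8.38 ± 0.82 and 9.30 ± 0.46 (0.078), both higher in all 4 treatments.

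Thrsp, a nuclear protein that follows lipogenic activity and is induced by insulin and thyroid hormone, had the largest fall of all. It measured 8.83, 8.54, 9.34 and 8.99 at passage 6 and 8.04, 7.31, 7.59 and 7.03 at passage 8. All passage 8 values lay below all passage 6 values, a difference of -1.43 (SE 0.19, limma adjusted p = 0.037), with passage 7 in between at 8.23 ± 0.21. Thrsp alone passed of 12 genes of de novo lipogenesis, beside 0.326% of the 11038 clusters called lower. Of the 12, 8 were lower and 4 higher, 5 of them lower in all 4 treatments, with a median of -0.05. Acss2 and Me1, which supply acetyl-CoA and NADPH, differed by -0.28 and -0.23, and the citrate carrier gene Slc25a1 by -0.19. Elovl6, which elongates palmitate, measured 9.84 ± 0.25 and 10.20 ± 0.20.

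Adgrf5, an adhesion G-protein-coupled receptor, measured 9.41, 9.04, 8.83 and 8.79 at passage 6 and 7.93, 7.42, 7.95 and 7.26 at passage 8, a difference of -1.38 (SE 0.14, limma adjusted p = 0.023). Slc25a33, a mitochondrial carrier of pyrimidine nucleotides, fell from 7.15 ± 0.17 to 6.02 ± 0.17, by 1.13 on the log2 scale. Its passage 8 mean lay below 6.19, so it is a member only through passage 6. Passage 7 lay between the other passages for both genes. Further falls were those of Abhd6, which hydrolyses monoacylglycerols, by 0.75, Tcn2, the vitamin B12 carrier transcobalamin 2, by 0.83, and Cdk18, a cyclin-dependent kinase, by 0.85. Aqp2, the vasopressin-regulated water channel of the kidney, fell by 0.83, from 7.40 ± 0.13 to 6.57 ± 0.08, close to the array median.

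Lipid handling genes gave few calls. Cpt1a, which admits fatty acids to mitochondria, rose from 7.84 ± 0.22 to 8.60 ± 0.22 (0.76, SE 0.10, limma adjusted p = 0.031). It was the only one to pass of 18 genes of mitochondrial fatty acid oxidation (6 higher, 12 lower, median -0.05). The same held for 16 PPAR-responsive genes (12 higher, median 0.12). Of the 11038 clusters 0.997% were called higher. Apoa4, an apolipoprotein of triglyceride-rich particles, rose from 7.23 ± 0.33 to 8.28 ± 0.29. None passed of 15 genes of triacylglycerol synthesis (9 higher, median 0.03), 15 of lipolysis and lipid droplets (12 higher, median 0.12), 14 of fatty acid uptake (10 higher, median 0.12), 19 of cholesterol synthesis (10 higher, median 0.00) or 6 of polyunsaturated fatty acid synthesis (all lower or at 0.00, median -0.07). Fads2, the delta-6-desaturase, measured 12.61 ± 0.16 and 12.60 ± 0.15.

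Of 20 inflammatory and acute-phase genes 16 were higher and 4 lower (median 0.33), and 2 passed, beside 0.997% of the 11038 clusters called higher. Both encode plasma proteins that adipocytes also secrete. Haptoglobin (Hp) rose by 0.67 and orosomucoid 2 (Orm2) by 0.72. Hp measured 9.81, 9.69, 8.98 and 9.05 at passage 6 and 10.25, 10.37, 9.75 and 9.81 at passage 8, lower with the inhibitor at both passages, and its passages overlapped. Both calls were lost without the treatment block. Over all 33 genes of the list on the array 24 were higher and 9 lower, with a median of 0.12. Vcam1, an adhesion molecule, differed by 0.41 and the chemokine gene Cxcl12 by 0.40, and neither passed.

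**Figure D3:**
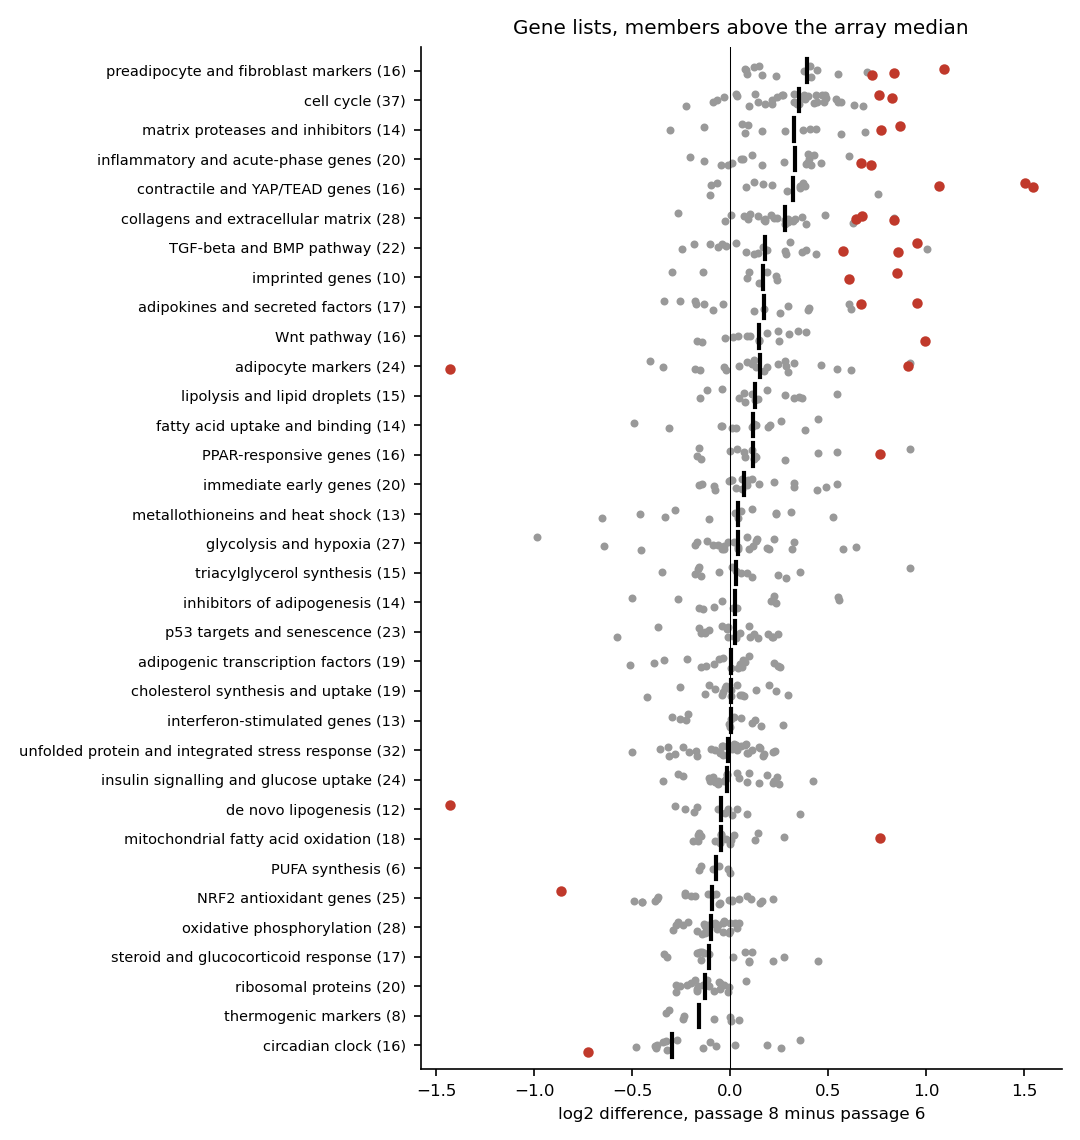
Log2 difference between passage 8 and passage 6 for the members of 34 gene lists that lay above the array median, 1 point per gene and their number in brackets. Red points passed the test (limma, adjusted p under 0.05) and black bars are list medians, from 0.39 for preadipocyte and fibroblast markers down to -0.30 for circadian clock genes.

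Of 37 cell cycle genes 33 were higher and 4 lower than at passage 6, 26 of them higher in all 4 treatments, with a median of 0.35. Of the members, 17 were higher at an unadjusted p under 0.01 and 0 were lower at that level, where 5.26% of the 11038 clusters were higher and 2.85% lower. The 2 that passed, beside 0.997% of the clusters called higher, were Kif23, a kinesin of the cleavage furrow, and E2f8, a repressor in the E2F family. Kif23 measured 6.47, 6.79, 6.28 and 6.04 at passage 6 and 7.42, 7.31, 6.96 and 6.93 at passage 8, a rise of 0.76 (SE 0.10, limma adjusted p = 0.037). E2f8 rose from 6.36 ± 0.28 to 7.19 ± 0.12.

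The other cell cycle genes did not pass. Mki67, the marker of dividing cells, measured 8.40 ± 0.38 and 8.97 ± 0.12 (limma adjusted p = 0.11), the mitotic kinase gene Plk1 8.58 ± 0.24 and 9.21 ± 0.11 (0.083), and the cyclin gene Ccna2 8.94 ± 0.25 and 9.43 ± 0.12 (0.083). The mitotic kinesins Kif20a (0.54) and Kif11 (0.55) were also higher without overlap. Between passages 6 and 7 the list median was -0.07, and between passages 7 and 8 it was 0.39. Cdkn1a, the p53-induced inhibitor of cyclin-dependent kinases, differed by 0.10, and 0 of 23 p53 and senescence genes passed (median 0.02). The mean signal of the list was 7.68 to 7.87 in the passage 6 cultures and 8.02 to 8.14 in those of passage 8.

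Replication-dependent histone genes, whose transcripts accumulate in S phase, were singled out after their values had been seen. Of 43 histone genes of the clusters on chromosome 13 above the array median 42 were higher and 1 lower, with a median of 0.36, 23 of them higher at an unadjusted p under 0.01 (5.26% of the 11038 clusters). 1 passed, H3c8 at 0.61 (limma adjusted p = 0.047), beside 0.997% of the clusters called higher. The genes are near-identical copies, so probes may be shared between them and the 43 values are not independent. The list mean was 8.64 to 8.92 in the passage 6 cultures and 9.07 to 9.14 in those of passage 8, while passage 7 lay at 8.73 to 8.84.

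The H2B genes of this family are the textbook case of the octamer, the site ATTTGCAT bound by the factor Oct-1 when H2B is switched on in S phase. The octamer, on either strand, was present in the 250 bases upstream of 4 of 11 H2B genes on chromosome 13 that were above the array median (36.4%) and of 5 of 11 H2A genes (45.5%). It was in 0 of 4 H1, 0 of 5 H3 and 0 of 10 H4 genes, and in the promoters of 1.81% of all 27025 genes with a sequence and 1.45% of the named genes above the array median. Many H2A and H2B genes lie head to head and share their upstream bases, so the H2A and H2B matches are not separate. The 120 bases upstream of the 4 H2B genes are shown because they hold the match, with the octamer in capitals, 5′ to 3′ on the plus strand, from RefSeq on GRCm38.p6.
H2bc14, chr13:21721924-21722043: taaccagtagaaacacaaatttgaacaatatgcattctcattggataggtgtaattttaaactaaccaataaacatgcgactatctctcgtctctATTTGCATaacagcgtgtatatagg
H2bc12, chr13:22035701-22035820: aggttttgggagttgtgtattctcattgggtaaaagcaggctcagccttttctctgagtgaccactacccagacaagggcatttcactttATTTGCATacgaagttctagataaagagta
H2bc8, chr13:23571280-23571399: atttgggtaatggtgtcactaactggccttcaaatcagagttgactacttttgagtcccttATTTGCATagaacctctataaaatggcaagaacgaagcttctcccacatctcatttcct
H2bc3, chr13:23746614-23746733: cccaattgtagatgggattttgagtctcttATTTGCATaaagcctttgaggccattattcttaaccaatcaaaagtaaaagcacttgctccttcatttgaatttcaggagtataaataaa

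These 4 genes differed by 0.53 (H2bc14), 0.46 (H2bc12), 0.34 (H2bc8) and 0.53 (H2bc3), and the 7 H2B genes without a match by 0.29 to 0.54, so the match did not separate them. None of the 4 passed the test, with limma adjusted p of 0.11, 0.15, 0.13 and 0.21 in that order. The octamer was chosen after 8 motifs had been searched with these data in view. Of the others, the E-box CACGTG was in 0 of 41 histone promoters against 6.86% of all genes, the CCAAT box in 82.9% against 37.5%, the CHR element TTTGAA in 46.3% against 18.3%, and the nuclear receptor element AGGTCA in 2.44% against 15.8%. The CArG box of serum response factor, known from the actin genes, was upstream of 1.49% of the 67 called higher genes with a promoter sequence, against 1.62% of all genes. The D-box was in 1.49% of the called higher genes and the sterol element in 0%, against 1.1% and 0.0814% of all genes. Of the 31 called lower genes with a promoter sequence, 0 held the D-box. The CCAAT box was in 40.3% of the called higher and 54.8% of the called lower genes. A match is a stretch of letters and not a measured site.

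**Figure D4:**
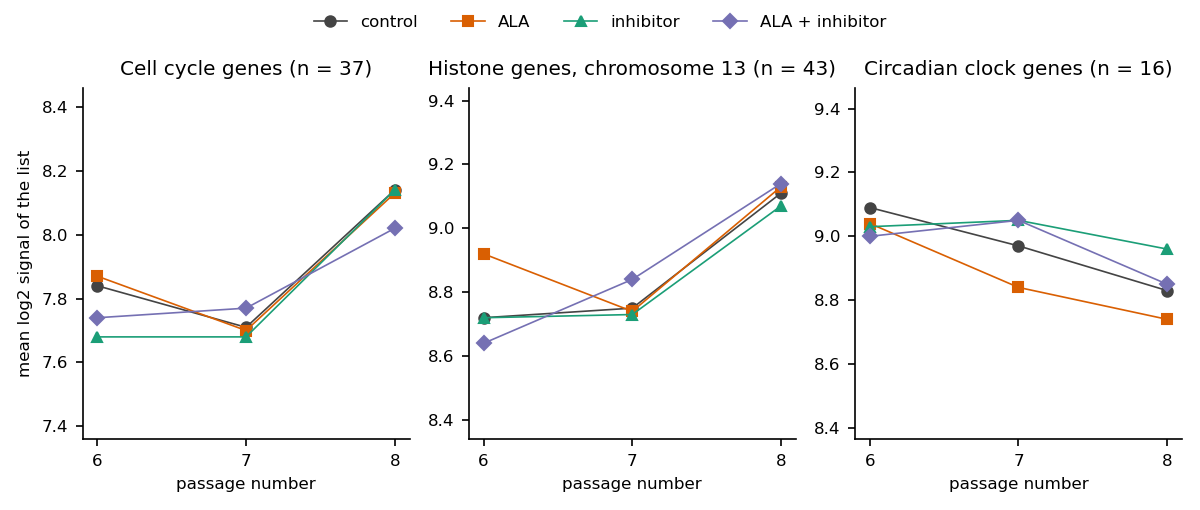
Mean log2 signal of the members above the array median of 3 gene lists on each array, against passage number, 1 line per treatment (37 cell cycle genes, 43 histone genes of chromosome 13 and 16 circadian clock genes). The cell cycle and histone means of every passage 8 culture lay above those of every passage 6 culture, and the clock means of passage 8 lay below those of passage 6 in each treatment.

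Of 16 circadian clock genes above the array median 12 were lower and 4 higher, 9 of them lower in all 4 treatments, with a median of -0.30. Dbp, a clock-controlled transcription factor of the D-box, measured 12.11, 12.17, 12.49 and 12.05 at passage 6 and 11.42, 11.54, 11.42 and 11.54 at passage 8. It was the only member to pass, with a difference of -0.73 (SE 0.11, limma adjusted p = 0.048) and no overlap, beside 0.326% of the 11038 clusters called lower. At an unadjusted p under 0.01 in limma, 6 members were lower and 0 higher, a level at which 2.85% of the clusters were lower and 5.26% higher. Nr1d1, the repressor REV-ERB alpha, differed by -0.48 (limma adjusted p = 0.15), the period gene Per3 by -0.38 (0.12) and the cryptochrome gene Cry1 by -0.39 (0.11). Usp2, a deubiquitinase whose transcript cycles with the clock, fell by 0.76, from 7.71 ± 0.24 to 6.96 ± 0.17, and is not on the list. The labels state no hour of RNA collection.

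Of 25 target genes of NRF2, the factor that switches on antioxidant enzymes, 17 were lower and 8 higher, with a median of -0.09, and 7 were lower at an unadjusted p under 0.01, a level at which 2.85% of the 11038 clusters were lower. Cbr1 (carbonyl reductase 1) fell from 10.11 ± 0.13 to 9.24 ± 0.06, by 0.87 on the log2 scale (SE 0.09, limma adjusted p = 0.024). It measured 10.20, 10.24, 10.03 and 9.98 at passage 6 and 9.31, 9.18, 9.26 and 9.22 at passage 8, even in both groups. Sod1 (superoxide dismutase 1) at -0.49 (limma adjusted p = 0.054), Ephx1 (an epoxide hydrolase) at -0.45 (0.085) and Gclc, the first enzyme of glutathione synthesis, at -0.45 (0.13) did not pass.

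No gene of oxidative phosphorylation or of the ribosome passed the test, and most members were lower by small amounts. Of 28 oxidative phosphorylation genes 25 were lower, with a median of -0.10, and of 20 ribosomal protein genes 19 were lower, with a median of -0.13. Ndufb8, a subunit of complex I, measured 8.21 ± 0.19 and 7.92 ± 0.19, and Rps18 11.49 ± 0.04 and 11.21 ± 0.07. Of 27 glycolysis and hypoxia genes none passed (15 higher, 12 lower, median 0.04), Aldoc, an aldolase, being the lowest at -0.99 (limma adjusted p = 0.072).

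Several neighbouring genes on chromosome 10 fell. The run was found after the values had been seen, by ordering the named genes above the array median along each chromosome as RefSeq places them on GRCm38.p6. From Rab3ip to Mdm1 there were 9 genes above the array median, and 7 of them were lower in all 4 treatments, 6 of which passed, against 0.326% of the 11038 clusters called lower. Rab3ip (an activator of Rab8) fell by 0.90, Yeats4 (a reader of acetylated histones) by 0.87, Cpsf6 (a cleavage factor for messenger RNA 3′ ends) by 1.06, Nup107 (a nuclear pore subunit) by 0.90 and Rap1b (a small GTPase) by 0.75. Cct2, a subunit of the cytosolic chaperonin, fell by 0.55 from 12.89 ± 0.07, and Mdm1, a microtubule-binding protein, differed by -0.65 (limma adjusted p = 0.072).

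Cpsf6 shows the pattern, with 10.76, 10.68, 10.68 and 10.56 at passage 6, 10.31 ± 0.05 at passage 7 and 9.49, 9.60, 9.69 and 9.67 at passage 8. Nup107 measured 9.68, 9.65, 9.52 and 9.61 and then 8.78, 8.68, 8.77 and 8.62. The spread between treatments was small beside the step between passages, and passage 7 lay in between for 7 of the 7 genes, at a median of -0.33 from passage 6. A further 6 genes of the run lay below the array median, 4 lower and 2 higher, with a median of -0.09. Of these the predicted gene 9530003J23Rik alone passed and fell by 1.02, while Best3 differed by -0.29, Cpm by -0.15, Lrrc10 by -0.03, Lyz2 by 0.17 and Lyz1 by 0.31.

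The other 2 genes of the run above the array median did not pass the test. Mdm2, the ubiquitin ligase for p53, measured 12.90 ± 0.05 and 12.93 ± 0.02, and Slc35e3, a solute carrier, 12.56 ± 0.07 and 12.63 ± 0.02. Both stand between Cpsf6 and Nup107 and lie near the top of the array range, at ranks 18 and 42 of mean signal over 22104 clusters. Cct2, at rank 40, fell by 0.55 from 12.89 ± 0.07. Whether the probes of Mdm2 and Slc35e3 can show a fall was not tested. Of the genes among the 12 neighbours on each side, 12 lay above the array median, 0 were called in limma, 0 were at an unadjusted p under 0.01 and the median was -0.02. Myrfl, directly before Rab3ip and below the array median, was lower in all 4 treatments, with a mean difference of -0.59 (limma adjusted p = 0.067). Over 9913 windows of 7 successive genes, 23 had a median of at least 0.4 in size. Of these 7 were on chromosome 10, 11 on chromosome 13 (the histone genes) and 5 on chromosome 18 (protocadherin beta genes). The protocadherin beta genes above the array median were higher in 6 of 6 cases (median 0.51). Of the 6, 1 was called, beside 0.997% of the 11038 clusters called higher. All 7 windows at -0.5 or below were on chromosome 10. The window size and limit were set with the run in view.

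**Figure D5:**
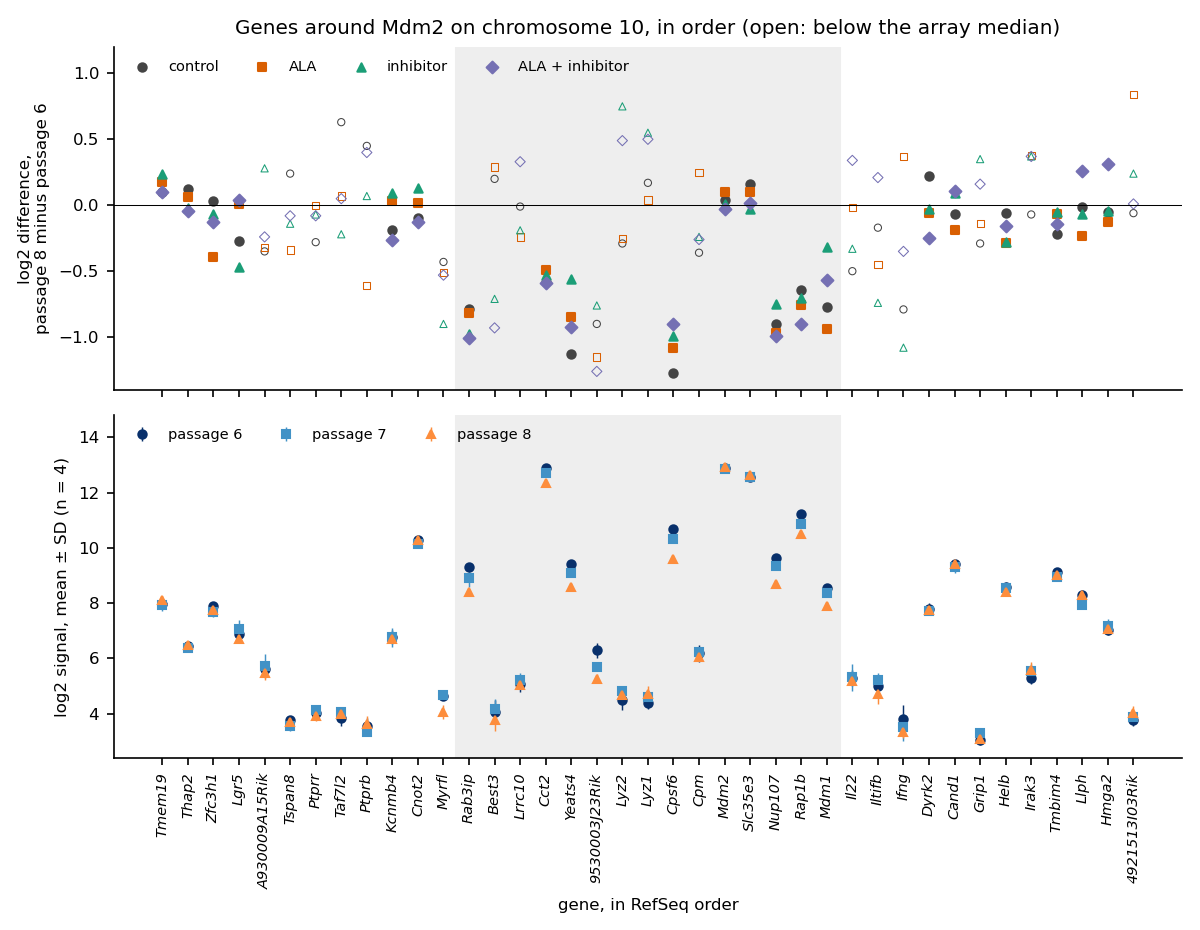
Genes around Mdm2 on chromosome 10 in RefSeq order, with the log2 difference between passage 8 and passage 6 in each treatment above and the mean log2 signal of each passage with its SD (n = 4) below. In the shaded run from Rab3ip to Mdm1 the 7 lower genes above the array median step down from passage 6 through 7 to 8, Mdm2 and Slc35e3 differ by 0.03 and 0.06, and open symbols are genes below the array median.

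Passage 7 was used to ask whether the differences were graded. The passage 7 mean lay between the means of passages 6 and 8 for 128 of the 146 called clusters (87.7%), for 92 of the 110 that rose and all 36 that fell. Over all 11038 clusters the share was 33.2%. The called clusters were chosen for a large difference between the outer passages, which by itself favours a value in between, so the shares carry no test. The median step from passage 6 to 7 was 0.19 and from 7 to 8 0.60 for the clusters that rose, and -0.36 and -0.39 for those that fell. Acta2 shows the first case, with 9.62 ± 0.26, 9.70 ± 0.36 and 11.16 ± 0.22 at passages 6, 7 and 8, and Slc25a33 the second, with 7.15 ± 0.17, 6.39 ± 0.40 and 6.02 ± 0.17. A separate limma fit of the passage 6 and passage 7 arrays called 0 of all 22104 clusters, with 236 (1.07%) at an unadjusted p under 0.01. The same fit of the passage 7 and passage 8 arrays called 4 (0.0181%), with 1300 (5.88%) at that level. These comparisons share arrays, and the ALA array of passage 7 stood apart, correlating at 0.976 to 0.987 with the others. Without the ALA arrays 136 of the 146 lay in between.

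Whether the passage difference depended on treatment was tested by interaction terms. No cluster of 22104 passed for ALA (smallest limma adjusted p 0.60, 1833 clusters at an unadjusted p under 0.05) or for the inhibitor (0.77, 1390 clusters). At an unadjusted p under 0.01 there were 264 for ALA (1.19%) and 172 for the inhibitor (0.778%). Chance alone gives about 221 at that level. With 1 residual degree of freedom such a test can miss sizeable differences. For Acta2 the rise was 1.47, 1.61, 1.38 and 1.70 in the 4 treatments, and for Ccl11 it was 1.51, 1.12, 1.78 and 2.01.

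Markers of other cell types were mostly below the array median by their mean over the 8 arrays of passages 6 and 8. This held for 12 of 14 macrophage, 11 of 13 endothelial, 12 of 16 skeletal muscle, 11 of 15 bone and cartilage, 7 of 10 Schwann cell and neuron and 9 of 11 epithelial markers. The mean signal over all 14 macrophage markers was 4.74 to 4.88 at passage 6 and 4.67 to 4.81 at passage 8, and over all 13 endothelial markers 4.89 to 5.17 and 4.94 to 5.00. For skeletal muscle it was 5.15 to 5.28 and 5.03 to 5.25. Des was the only marker of these 6 lists to pass, beside 0.326% of the 11038 clusters called lower.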

How the data were processed

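RNA of 3T3-L1 adipocytes was measured on whole-transcript arrays. The deposited table holds log2 signals that the authors computed by RMA, per the submitters' processing notes. The software version and the genome build of the probes are not given in the sources used here, and no scanner files were used here. Of 22104 clusters, 19509 carried 1 gene symbol and 2595 none. Where a gene had several clusters, the one with the highest mean stood for it. RefSeq (GRCm38.p6) gave gene order and promoter sequences.

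The 8 arrays were fitted with limma 3.58.1 in R 4.3.3 (statmod 1.5.0), passage as a factor and treatment as a block, without trend or weights. The 3 residual degrees of freedom were joined by 3.87 prior ones. Calls are at a Benjamini-Hochberg adjusted p under 0.05 over all clusters. In simulated data with the same design, 24% of clusters changed by 0.5 were called, 66% of those changed by 1 and 96% of those changed by 1.5, with 5 false calls. The simulated noise was independent between arrays, with spreads shuffled over all clusters. It held no effect shared by the cultures of a passage, so these figures do not cover differences between rounds of culture.

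Same-treatment arrays of passages 6 and 8 deviated together only weakly (r of deviations from the passage mean 0.024 for control, 0.101 for ALA, 0.034 for the inhibitor and 0.031 for both).

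Named genes were the 15 highest and 15 lowest called differences of the same sign in all 4 treatments, up to 6 members of each gene list by smallest p, and 14 fixed genes. Only some of these are printed. The members, lists and tests were chosen with earlier results of these data known. The chromosome 10 run, the histone and protocadherin sets and the motifs were chosen after their values had been seen. The alternatives tried were other blocks, scalings, filters, priors, weights and thresholds, all 12 arrays, and leaving out each treatment.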

Additional observations from a re-analysis of the deposited data

Results flagged for a closer look

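By Dixon's rule for groups of 4, 1 culture stood far from the other 3 of its passage in 4 of 240 groups (120 genes at passages 6 and 8). Among replicates chance alone flags about 1 group in 20. The 4 cultures of a group differed in treatment, so that rate need not hold here. A treatment difference and a stray culture cannot be told apart. Sox9 measured 10.69 in the passage 8 control culture and 10.43 to 10.47 in the other 3. Gclc measured 8.22 in that culture and 7.88 to 7.93 in the others. Timp4 measured 7.44 in the passage 6 culture with ALA and 7.59 to 7.61 in the others. Elovl5, an elongase of polyunsaturated fatty acids, measured 10.79 there and 10.98 to 11.00 in the others. Elovl5 was also lowest with ALA at passage 7 (10.65) and at passage 8 (10.56).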

How the results depend on the processing

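The count of called clusters depended on how the spread was estimated, while the direction of the named genes changed only for Fads2 and Cebpa, both near 0. Whether a named gene passed depended on it too. Of 120 genes followed through the settings, 55 passed in the main fit. With the intensity trend and robust prior 54 more passed, and with only clusters above the array median in the fit 49 more did. A gene said here not to pass therefore did not pass in the main fit. Without the replicate block for treatment 370 clusters above the array median passed (464 of all), with all 12 arrays 355 (423), with all 12 arrays but the ALA array of passage 7, an alternative chosen after seeing the data, 492 (593), with an intensity trend and robust prior 1572 (1754), with only clusters above the array median in the fit 1188, and at an unadjusted p under 0.01 896 (1290). The main counts were 146 and 176. Passage number as a linear term gave 219, median centring 159, quantile normalization 158 and array weights 151. Leaving out each treatment gave 0 to 4 clusters above the array median and 0 to 10 of all. The 0 to 4 rest on 2 residual degrees of freedom. Of the 146 clusters, 128 were also called without the paired block, 139 with all 12 arrays, 117 with the linear term and 142 after quantile normalization. Lists kept the sign of their medians under centring and quantile normalization wherever the median was 0.05 or more in size. The interaction counts were 264 for ALA and 172 for the inhibitor at an unadjusted p under 0.01, and 0 with all 12 arrays or after quantile normalization. The value of Fads2 turned from -0.00 to 0.00 when arrays were centred and to at most 0.01 when a treatment was left out, and that of Cebpa from 0.04 to -0.00 without the inhibitor arrays. The share of rises among the called clusters was 75.3%, 77.4% after centring and 70.3% after quantile normalization. Detection calls were not used here, so for genes just above the array median it is not known how far the signal stood above background.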

Other observations

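Several further gene groups gave few or no calls between passage 8 and passage 6. Of 19 adipogenic transcription factors 10 were higher and 9 lower, with a median log2 difference of 0.00 and none called, Klf15 being the lowest at -0.51 (limma adjusted p = 0.10). Of 14 inhibitors of adipogenesis 8 were higher (median 0.02), and Zfp521, a zinc finger protein that holds cells in the precursor state, measured 7.50 ± 0.26 and 8.05 ± 0.27 (limma adjusted p = 0.052). Sox9, a transcription factor of mesenchymal precursors, measured 9.96 ± 0.33 and 10.51 ± 0.12 (0.10). Of 17 adipokine and secreted factor genes above the array median 10 were higher (median 0.17), and the calls were Fst and Hp, beside 0.997% of the 11038 clusters called higher. Over all 25 genes of that list on the array 11 were higher and 14 lower, with a median of -0.09. Retn (resistin) differed by 0.30 without a call.

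Of 8 thermogenic markers 6 were lower (median -0.16), and of 24 insulin signalling genes 13 were lower (median -0.02), none of them called. Stress response genes, including those of the unfolded protein response, were even, with 16 of 32 lower (median -0.01), and Ddit3, its pro-apoptotic transcription factor, measured 10.89 ± 0.27 and 10.39 ± 0.08 (limma adjusted p = 0.093). Of 13 metallothionein and heat shock genes 8 were higher (median 0.04), while the mitochondrial co-chaperonin gene Hspe1 differed by -0.46 (limma adjusted p = 0.072). Of 20 immediate early genes 15 were higher (median 0.07), of 13 interferon-stimulated genes 7 were higher (median 0.00), and of 17 steroid response genes 9 were lower (median -0.11), again without a call.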
